A study of Homo sapiens with 4 samples.

Results

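The genes described here are the replication-dependent histone genes of the clusters on chromosomes 6 and 1, with 1 more gene on chromosome 12. They were chosen by symbol alone (HIST1H, HIST2H, HIST3H or HIST4H at the start), and symbols that mark a pseudogene (P or PS in the ending) were left out. The rule gave 75 of 53826 listed entities and set aside 15 pseudogenes. Of the 75 members, 6 belong to the linker histones H1, 17 to H2A, 23 to H2B, 14 to H3 and 15 to H4. All 75 were matched by gene identifier to RefSeq, which lists 70 as protein coding. The other 5 are pseudogenes there without a P in the deposited symbol (HIST2H2BA, HIST2H2BB, HIST2H2BC, HIST2H2BD and HIST3H2BA).

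The values come from mRNA sequencing of PK-1, an established human pancreatic cancer cell line, in 4 conditions with 1 library each. Stable SPRR1A cells carried a retroviral pMXs vector encoding FLAG-tagged SPRR1A, a small proline-rich protein of squamous epithelia, and stable DsRed cells carried pMXs with the red fluorescent protein DsRed. Transient SPRR1A cells received the plasmid pCAG-SPRR1A, and transient GFP cells received pCAG with green fluorescent protein, both 48 hours before RNA isolation. The study compared SPRR1A with its control in each model, using a 2-fold threshold, and the same threshold was used here. No untreated PK-1 library was used, so every library carries a vector and an overexpressed protein. In the transient model transfected and untransfected cells were read together. The models also differ in vector, promoter, delivery and control protein, and these cannot be told apart from each other or from the batch of culture. With 1 library per condition, the differences have no replicate error and no test was run.

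Replication-dependent histone genes supply the core histones and linker histone that package newly made DNA, and their mRNAs are known to accumulate in S phase. Most of these genes lack introns, and their mRNAs normally end in a conserved stem-loop instead of a poly(A) tail. The stem-loop is bound by SLBP, and the end is cut with the help of the U7 snRNP. Some members are also known to give polyadenylated transcripts, by reading past the stem-loop to a polyadenylation signal or by splicing. The libraries were prepared with a stranded mRNA kit, whose standard procedure selects poly(A) RNA. The levels below are therefore those of the histone RNA that such a library retains, and total histone mRNA was not measured.

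The stem-loops are shown first, since they define the family. A 16-base stem-loop (6 paired bases on each side of a 4-base loop) was searched within 100 bases after the stop codon of GENCODE 44 coding transcripts on GRCh38. The search was limited to the histone form, which begins with GG and ends with CC. Its loop had to read T, any base, T and any base, and 1 mismatched pair was allowed. This form was present in 70 of 70 protein-coding members, in 68 of them with every pair matched. Over all 19924 genes searched, members included, 124 (0.622%) held this form. The 5 bases on either side are in lower case and the stem-loop is in capitals. The sequences are those of members with high levels or large differences between libraries, and each lies in the 3′ UTR, on the minus strand of GRCh38.
HIST1H2BK, chr6:27146361-27146386: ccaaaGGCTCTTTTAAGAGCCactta
HIST1H2BC, chr6:26123467-26123492: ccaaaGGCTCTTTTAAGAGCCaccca
HIST1H1C, chr6:26055739-26055764: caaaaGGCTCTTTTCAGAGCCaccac
HIST2H2AA3, chr1:149842218-149842243: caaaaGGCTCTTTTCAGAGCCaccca
HIST1H4H, chr6:26285126-26285151: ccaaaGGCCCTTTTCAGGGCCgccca
HIST4H4, chr12:14770719-14770744: caaaaGGCCCTTTTCAGGGCCcccaa

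There were 10 distinct stem-loops among the 70 genes. The form of HIST1H1C and HIST2H2AA3 was the most common, in 40 members. The form of HIST1H2BK and HIST1H2BC was present in 10, and the form of HIST1H4H and HIST4H4 in another 10. Members with the same form were far apart in level: HIST1H2BK was the highest of all members and HIST1H2BC was near the floor in stable DsRed cells.

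Levels are given as the deposited log2 of TPM, the share of transcripts in a library scaled for gene length. The deposited scale has its floor at 0 (any TPM up to 1), and a gene at the floor is written as listed at 0. The number of entities above the floor was 12964 to 13558 per library. In each model SPRR1A was higher in the library labelled with it. Its log2 TPM was 10.93 with stable SPRR1A, 0.75 with DsRed, 16.60 with transient SPRR1A and 3.56 with GFP. The controls carry no SPRR1A transgene, and their values differed from each other. The study describes PK-1 as a line that expresses SPRR1A natively. The 8 markers of pancreatic ductal epithelium were above the floor in 7 or 8 genes per library, and their summed TPM was 26338, 26925, 18712 and 20561 in the same order. Of 12 markers of other pancreatic cell types, 3 were above the floor in each library (PRSS1, COL1A1 and CD68), with a summed TPM between 21.3 and 38.6. In the list PRSS1 stands for acinar cells, COL1A1 for stromal cells and CD68 for macrophages. All libraries are of the PK-1 line, and the presence of such cells was not examined. The other 9 markers of the list, CPA1, CELA3A, INS, GCG, COL1A2, DCN, PTPRC, PECAM1 and VWF, were listed at 0 in all 4 libraries. Read totals are not recoverable from TPM, so the depth of each library is unknown.

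Most members were low in all 4 libraries. Of the 75, 22 were listed at 0 in every library, 27 were above the floor in all 4, and 53 were above it in at least 1. More members were above the floor in the transient libraries: 44 in transient SPRR1A and 50 in transient GFP, compared with 31 in stable SPRR1A and 32 in stable DsRed. The number with a TPM of 5 or more was 11 with stable SPRR1A, 8 with DsRed, 20 with transient SPRR1A and 22 with GFP. The 4 testis histones of the clusters (HIST1H1T, HIST1H2AA, HIST1H2BA and HIST3H3), whose transcripts are known from male germ cells, were listed at 0 throughout.

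**Figure D1:**
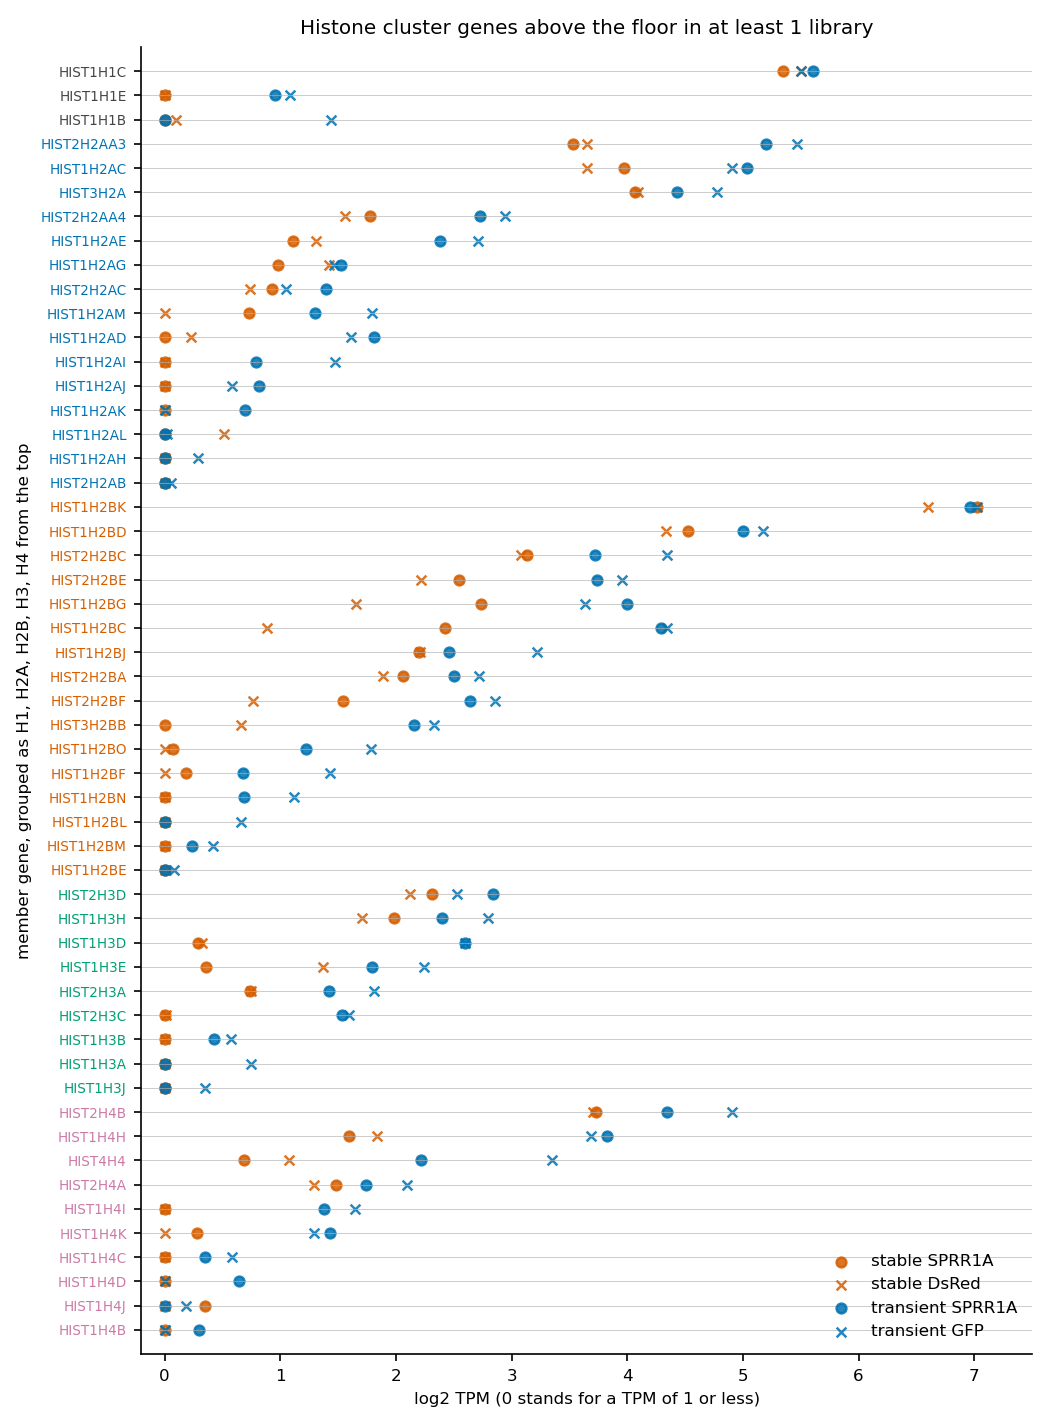
Log2 TPM (x axis) of the 53 members above the floor in at least 1 library, 1 row per gene, grouped by histone class and ordered by mean level. Circles are SPRR1A libraries, crosses are controls, orange is the stable model and blue the transient model, with 1 library per symbol. Both blue symbols lie to the right of both orange symbols in 39 of the 53 rows. In 17 rows both orange symbols are at 0, and these genes entered the figure only through a transient library.

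Summed over members, the TPM was 325.4 with stable SPRR1A, 284.5 with DsRed, 499.1 with transient SPRR1A and 560.5 with GFP. These sums were 0.0325%, 0.0284%, 0.0499% and 0.0560% of a library. Transient GFP thus stood at 1.97 times stable DsRed, and transient SPRR1A at 1.53 times stable SPRR1A. Between SPRR1A and its own control the ratio was 1.14 (stable) and 0.890 (transient). A single H2B gene, HIST1H2BK, gave 39.9%, 34.1%, 25.1% and 23.3% of these sums. Without it the sums were 195.6, 187.3, 374.0 and 430.0. As these are bulk samples, fewer cells that carry a transcript and less of it per cell cannot be told apart.

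The classes differed in how far the transient libraries stood above the stable ones. The summed TPM of H4 was 2.96 times as high in transient GFP as in stable DsRed, that of H2A 2.47 times and that of H3 2.44 times. The ratio was 1.87 for H2B and 1.08 for H1, the classes led by HIST1H2BK and HIST1H1C. Between SPRR1A libraries, transient over stable, the ratios were 2.24 for H4, 2.16 for H2A, 2.2 for H3, 1.28 for H2B and 1.25 for H1. H2B was the largest class in every library, with 59.4%, 51.7%, 49.7% and 49.2% of the member TPM. H3 was the smallest, with 4.03% to 6.15%.

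**Figure D2:**
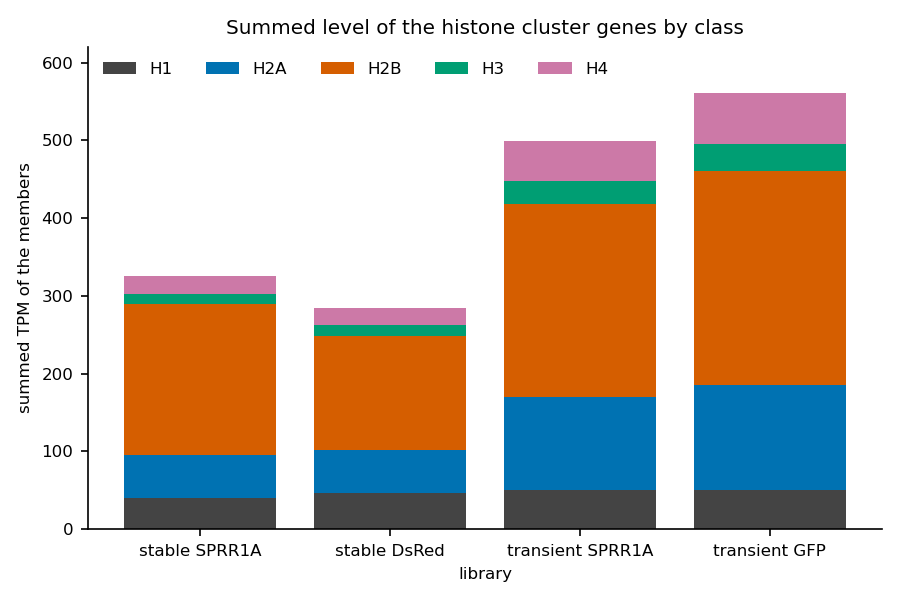
Summed TPM (y axis, from 0) of the members in each of the 4 libraries, stacked by histone class, with values at the floor counted as 0. The bars reach 325.4, 284.5, 499.1 and 560.5, and the H1 segment changes least, between 40.6 and 50.8.

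Among the linker histones, which bind DNA between nucleosomes, HIST1H1C carried nearly the whole class. Its log2 TPM was 5.34 with stable SPRR1A, 5.51 with DsRed, 5.61 with transient SPRR1A and 5.50 with GFP. The 4 values lay within a narrow range, and neither model stood apart. HIST1H1E, another somatic linker histone, was listed at 0 in both stable libraries and was at 0.96 and 1.08 in transient SPRR1A and transient GFP. HIST1H1B was at 0 with stable SPRR1A, 0.10 with DsRed, 0 with transient SPRR1A and 1.44 with GFP, so only the last library was clearly above the floor.

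H2A pairs with H2B in the outer part of the nucleosome core. HIST2H2AA3 was at 3.53 with stable SPRR1A, 3.66 with DsRed, 5.20 with transient SPRR1A and 5.47 with GFP. HIST1H2AC was at 3.98, 3.65, 5.03 and 4.90 in the same order. In both genes the transient values were above the stable values by more than 1 log2 unit within each pair of like libraries. HIST3H2A, from the small HIST3 cluster on chromosome 1, differed less, with 4.07, 4.09, 4.43 and 4.78. HIST2H2AA4 was at 1.77, 1.56, 2.73 and 2.94. HIST2H2AA3 and HIST2H2AA4 are near copies: 91.3% and 92.5% of the 50-base stretches of their transcripts also occur in another gene, so the split of reads between them is uncertain. HIST1H2AE was at 1.11, 1.31, 2.38 and 2.71, again with both transient values on top.

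In H2B, HIST1H2BK was the highest member in every library, at 7.02 with stable SPRR1A, 6.60 with DsRed, 6.97 with transient SPRR1A and 7.03 with GFP. It did not separate the models, and stable DsRed was the lowest of the 4. HIST1H2BD was at 4.52, 4.34, 5.0 and 5.17, and HIST2H2BE at 2.54, 2.22, 3.74 and 3.95. Both were higher in the transient libraries, and only HIST2H2BE passed the 2-fold threshold. HIST1H2BC had the widest spread of any member, at 2.42 with stable SPRR1A, 0.89 with DsRed, 4.29 with transient SPRR1A and 4.34 with GFP. HIST1H2BG was at 2.74, 1.65, 4.0 and 3.63. In these 2 genes the order of the libraries was the same on the stable side, SPRR1A above DsRed, and the transient libraries differed by less than 2-fold. HIST2H2BF was at 1.54, 0.77, 2.64 and 2.86. HIST2H2BC, a pseudogene in RefSeq with 73.7% of its 50-base stretches found in other genes, was listed at 3.13, 3.08, 3.73 and 4.34.

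The H3 genes, whose products form the central tetramer of the nucleosome with H4, were all low. HIST1H3D was at 0.29 in stable SPRR1A, 0.32 in stable DsRed, and 2.60 in both transient libraries. The H2A gene HIST1H2AD lies inside the RefSeq span of HIST1H3D on the same strand and was at 0, 0.23, 1.81 and 1.61, so reads of these overlapping genes cannot be told apart with certainty. HIST2H3D was at 2.31, 2.12, 2.84 and 2.53, and HIST1H3H at 1.99, 1.71, 2.40 and 2.79. HIST1H3E was at 0.36, 1.37, 1.79 and 2.24, so that stable SPRR1A was the lowest of its libraries.

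All H4 genes encode nearly the same protein, and several members share long stretches of sequence. HIST2H4B was at 3.73 with stable SPRR1A, 3.71 with DsRed, 4.35 with transient SPRR1A and 4.91 with GFP, and its near copy HIST2H4A at 1.48, 1.29, 1.75 and 2.09. Of their 50-base stretches 93.1% and 83.5% are shared with other genes. The RefSeq span of HIST2H4B also overlaps HIST2H2AA4, HIST2H3A and HIST2H2BC, and that of HIST1H2BK overlaps HIST1H4I on the opposite strand. Whether counting used the strand is not given in the sources used here. HIST1H4H, which shares none, was at 1.60, 1.83, 3.83 and 3.69, and the transient values were well above the stable ones. HIST4H4, the single member on chromosome 12, was at 0.69, 1.08, 2.22 and 3.35. It differed between the transient libraries as well as between models.

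SPRR1A was compared with its control within each model, the question the study asked. In the stable model, 2 members were past 2-fold higher with SPRR1A and 1 was past it lower. HIST1H2BC was higher by 1.53 and HIST1H2BG by 1.09 on the log2 scale, both H2B genes, and HIST1H3E was lower, with a log2 difference of -1.01. Over the 13944 entities above the floor in any library, 0.502% were past 2-fold higher and 0.402% lower, and the 3 members called had a TPM of at most 6.68. In the band of log2 TPM from 2 to 3 in the higher library, which holds both H2B genes, 1.30% of 1690 entities were past 2-fold higher, and 2 of 6 members. The median difference of the 36 members above the floor in either library was 0.06, compared with 0.07 over all such entities. The libraries compared here are 1 against 1, and no member with a TPM of 5 or more in both was past the threshold.

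In the transient model, 0 members were past 2-fold higher with SPRR1A than with GFP and 2 were past it lower. The log2 difference was -1.44 for HIST1H1B, which was listed at 0 with SPRR1A, and -1.13 for HIST4H4. The background was 0.186% of entities higher and 0.688% lower. Of the 53 members above the floor, 39 had a negative and 14 a positive difference. Their median was -0.21, and that of all entities was -0.19. SPRR1A itself took up part of the TPM total in this library: with SPRR1A left out of the total, the median of the members was -0.06, and HIST4H4 was at -0.98. No member was past 2-fold in both models. HIST1H2BC and HIST1H2BG, higher with SPRR1A in the stable model, had transient values of 4.29 and 4.34, and 4.0 and 3.63, for SPRR1A and GFP.

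**Figure D3:**
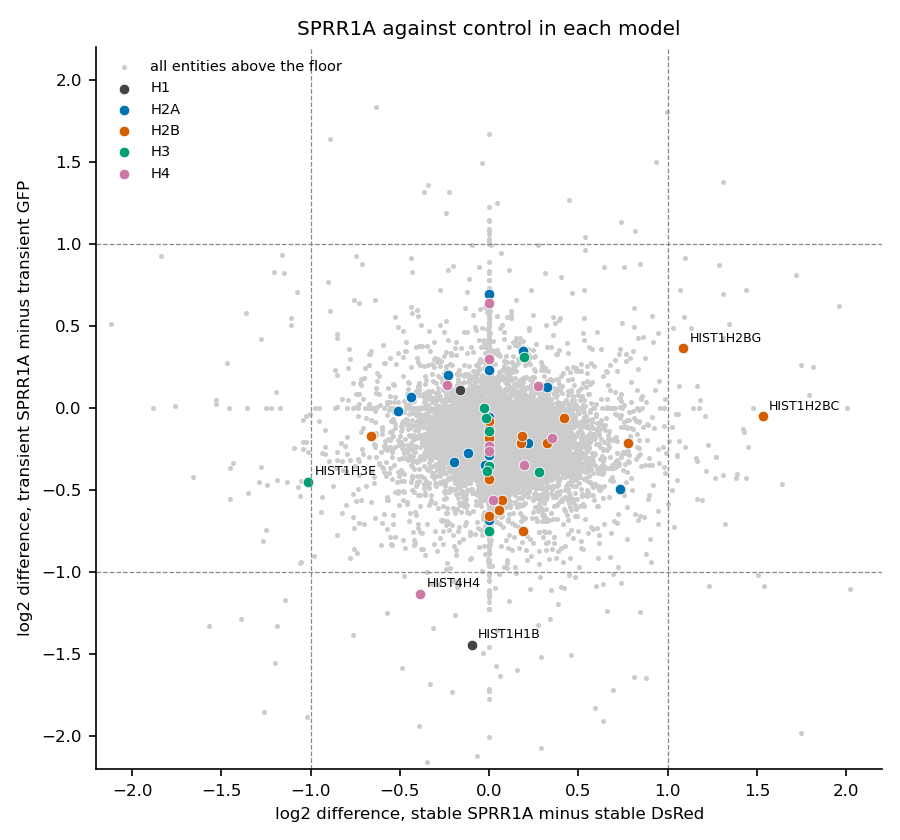
Log2 difference of SPRR1A minus control in the stable model (x axis) and the transient model (y axis), for the members by class and for all entities above the floor in grey. Dashed lines mark a 2-fold difference, and grey points beyond the axes are not drawn. Of the members, 3 lie past 2-fold on the x axis, 2 on the y axis and 0 on both.

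The larger differences were between the models. In transient GFP compared with stable DsRed, 28 of the 53 members above the floor (52.8%) were past 2-fold higher and 0 lower. Among all entities, 6.77% were higher and 0.653% lower. A positive difference was seen in 48 members, and the median of the 53 was 1.06, compared with 0.17 over all entities. Of the 53, 17 were listed at 0 in both stable libraries, so they could not be lower in a transient one. In transient SPRR1A compared with stable SPRR1A, which shares no library with the first comparison, 17 members (32.1%) were past 2-fold higher and 0 lower. The background was 2.54% higher and 0.947% lower. The median was 0.59, compared with -0.07 over all entities. Among all entities 285 were past 2-fold higher in both comparisons, of 944 in the first and 354 in the second. Most of the second set was thus also in the first over all entities. Of the members, 16 were past 2-fold in both comparisons, of 28 in the first and 17 in the second. They were HIST1H2AC, HIST1H2AD, HIST1H2AE, HIST2H2AA3, HIST1H2BC, HIST1H2BG, HIST1H2BO, HIST2H2BE, HIST2H2BF, HIST3H2BB, HIST1H3D, HIST2H3C, HIST1H4H, HIST1H4I, HIST1H4K and HIST4H4, thus genes of H2A, H2B, H3 and H4 and none of H1. Of these, 11 were above the floor in all 4 libraries. Among all entities 285 were past 2-fold higher in both comparisons, of 944 in the first and 354 in the second.

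Above a log2 TPM of 1, low genes pass 2-fold more often, so the members were also set beside entities of like level. Where the higher library was at 1 or below, no call is possible, and this band held 12 members in each comparison. Where the higher library had a log2 TPM between 3 and 5, 9 of 10 members were past 2-fold higher in transient GFP over stable DsRed, compared with 6.81% of 4523 entities. In the SPRR1A libraries the figures were 4 of 7 members and 2.28% of 4518 entities. Between 1 and 2, near the floor, they were 12 of 14 members beside 20.3% of entities, and 6 of 11 beside 9.17%. Between 2 and 3 they were 6 of 10 beside 13.2%, and 5 of 10 beside 4.35%. In the highest band, above 5, which holds HIST1H2BK and HIST1H1C, only 1 of 4 members was past 2-fold higher between the controls, beside 2.97% of entities, and 2 of 5 between SPRR1A libraries, beside 1.17%. With a TPM of 5 or more in both libraries, 4 of 8 members were past 2-fold higher between the controls (background 3.21%), and 5 of 11 between SPRR1A libraries (background 1.12%). Both transient values were above both stable values in 39 members, 73.6% of the 53, compared with 33.5% of all entities. The reverse order occurred in 0 members, compared with 26.2% of all entities. The 17 members listed at 0 in both stable libraries entered the 53 only through a transient library. For them the reverse order was not possible, and the first order needed only 2 transient values above the floor. Among members above the floor in both libraries compared, 30 of 32 differences were positive between the controls, and 29 of 30 between SPRR1A libraries.

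Among members with a TPM of 5 or more in the higher library, the largest differences between the controls were 3.45 for HIST1H2BC, 2.28 each for HIST1H3D and HIST4H4, 2.09 for HIST2H2BF and 1.98 for HIST1H2BG. Between SPRR1A libraries HIST1H3D (2.31), HIST1H4H (2.23), HIST1H2BC (1.87), HIST2H2AA3 (1.66) and HIST1H2AE (1.27) led among such members. Of the members with lower TPM there, HIST3H2BB (2.16) and HIST1H2AD (1.81), both listed at 0 in stable SPRR1A, also had large differences, as had HIST4H4 (1.53). The value of HIST1H2BC between the controls rests on the stable DsRed library, in which it was lower than in stable SPRR1A. HIST1H2BK, the highest member, had 0.43 and -0.05, and HIST1H1C had -0.01 and 0.27. As a measure of the general distance between libraries, the SD of the log2 difference over the 9658 entities with a TPM of 5 or more in all 4 was 0.42 between the controls and 0.35 between SPRR1A libraries, compared with 0.17 and 0.13 for SPRR1A over control in the stable and the transient model.

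**Figure D4:**
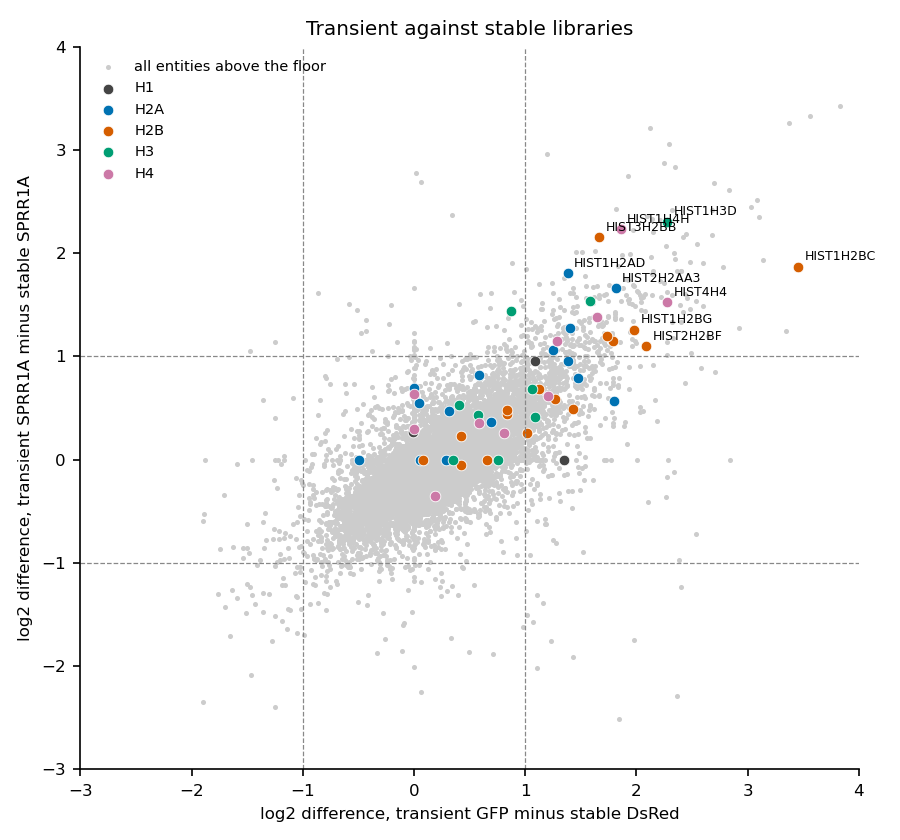
Log2 difference of transient GFP minus stable DsRed (x axis) and of transient SPRR1A minus stable SPRR1A (y axis) for the members by class and all entities above the floor in grey. Dashed lines mark 2-fold, grey points beyond the axes are not drawn, and members past 1.8 on either axis are named. The upper right field, past 2-fold on both axes, holds 16 members, and no member lies past 2-fold on the lower side of either axis.

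Since a poly(A) library is known to favour polyadenylated forms, the members were also described by gene model. A model was called long where the gene spans more than 1000 bp in RefSeq, introns included, or a GENCODE transcript ends more than 100 bases past the stem-loop. Of the 70 coding members, 19 were long, and 18 of them were above the floor in at least 1 library and 15 in all 4. Of the 51 short ones, 33 were above the floor in at least 1 library, 10 in all 4, and 18 were at the floor in all. The long models include HIST1H2BK, HIST1H2BC, HIST1H2AC, HIST1H3D, HIST1H3E, HIST1H4H and HIST4H4. Of the short models, only HIST1H1C, HIST2H2AA3, HIST2H2AA4, HIST1H2BG, HIST1H2AE and HIST2H3D reached a TPM of 5 in any library. The summed TPM of the long models was 231, 190, 320 and 360, and that of the short ones 81.3, 82.7, 160 and 174, in the same order of libraries. Members of either kind were past 2-fold higher in the transient libraries: 12 of 18 long and 15 of 33 short models between the controls, and 9 of 18 and 8 of 33 between SPRR1A libraries. Over all entities the shares were 6.77% and 2.54%. The difference between long and short models was not tested. TPM divides by an annotated length, and which model was used for each member is not given in the sources used here.

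The list of members known for polyadenylated transcripts held 9 genes: HIST1H1C, HIST1H2AC, HIST1H2BC, HIST1H2BD, HIST1H2BK, HIST1H4H, HIST2H2AA3, HIST2H2BE and HIST3H2A. All 9 were above the floor. Past 2-fold higher were 5 of them between the controls (median 1.25) and 5 between SPRR1A libraries (median 1.06). The shares were 52.8% and 32.1% over the 53 members above the floor, and 6.77% and 2.54% over all entities. Within the stable model 1 was higher with SPRR1A (median 0.18), beside 0.502% of all entities. Within the transient model 0 were called (median -0.06).

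Many H2A and H2B genes lie head to head and share 1 promoter region. Of the members, 11 such pairs had starts 194 to 248 bp apart. HIST1H2AC and HIST1H2BC, 246 bp apart, were both past 2-fold higher in the transient libraries, and the H2B partner was lower than the H2A partner in every library, with a log2 difference of -1.56 with stable SPRR1A, -2.76 with DsRed, -0.74 with transient SPRR1A and -0.56 with GFP. HIST1H2AE and HIST1H2BG, 233 bp apart, went the other way, with HIST1H2BG higher by 1.63, 0.35, 1.62 and 0.92. Both genes of this pair were past 2-fold higher in both comparisons between models. HIST3H2A and HIST3H2BB, 230 bp apart, were unequal: HIST3H2A was above 4 in every library, and HIST3H2BB was at 0, 0.66, 2.16 and 2.33. The gap between HIST1H2AC and HIST1H2BC was widest in stable DsRed cells. Other partners were near each other: HIST1H2AM and HIST1H2BO were at 1.30 and 1.22 in transient SPRR1A and at 1.79 and 1.78 in transient GFP cells. Of the pairs with a partner above the floor, 6 of 10 differed by less than 2-fold in transient SPRR1A and 6 of 10 in transient GFP, compared with 2 of 7 in stable SPRR1A and 3 of 6 in stable DsRed. With the floor at 0, a pair with both partners below 1 cannot differ by 2-fold. Such pairs are among those counted in every library, for example HIST1H2AD and HIST1H2BF in both stable libraries, and HIST1H2AJ and HIST1H2BM in both transient ones. The counts therefore do not show whether partners were closer in 1 of the models.

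Promoter sequences of RefSeq on GRCh38.p14 (250 bases before to 50 after the start) were matched for 65 members. The octamer ATTTGCAT, searched on both strands, is known as a site of the factor OCT1. It was present in 14 of 18 H2B (77.8%) and 11 of 16 H2A promoters (68.8%), in 1 of 12 H3 promoters (HIST1H3D) and in 0 of H1 and H4, compared with 1.8% of 27305 promoters. TATAAA was present in 43 of the 65 (66.2%), compared with 12%, and CCAAT in 55 (84.6%), compared with 35.7%. Of the H4 promoters 3 of 13 held CCAAT. Head-to-head partners share much of these windows, so their matches are not separate. HIST1H3D and HIST1H2AD have the same window on the same strand, so the H3 match is an H2A match counted again. The promoter of HIST1H2BC, the member with the widest spread, is shown with the octamer and the TATA letters in capitals, the latter on the other strand and facing HIST1H2AC.
HIST1H2BC promoter, chr6:26123877-26124176, minus strand: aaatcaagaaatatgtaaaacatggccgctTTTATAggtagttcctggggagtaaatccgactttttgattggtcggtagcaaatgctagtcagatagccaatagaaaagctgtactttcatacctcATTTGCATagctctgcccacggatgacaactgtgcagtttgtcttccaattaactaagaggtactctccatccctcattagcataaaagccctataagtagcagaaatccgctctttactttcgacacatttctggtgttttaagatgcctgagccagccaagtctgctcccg

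The differences between models were also set beside the octamer. Of 19 H2A and H2B genes above the floor with the octamer, 11 were past 2-fold higher between the controls (median 1.25) and 8 between SPRR1A libraries (median 0.56). Of 9 without the octamer, 5 and 2 were past 2-fold higher, with medians of 1.12 and 0.69. Over all entities the shares were 6.77% and 2.54%. The difference between genes with and without the octamer was not tested.

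The other genes of the pathway gave no 2-fold calls. Over all entities 6.77% and 2.54% were past 2-fold higher between the controls and between SPRR1A libraries. Above a log2 TPM of 5 in the higher library the shares were 2.97% and 1.17%, and fewer were past it lower. In lists as short as those below, 0 calls lie near these shares. Of 12 replication-independent histones, which are not confined to S phase and mostly have polyadenylated mRNAs, 11 were above the floor and 0 were past 2-fold in any comparison. Their median was -0.04 between the controls and -0.27 between SPRR1A libraries. H2AFZ, the highest, was at 10.06, 10.04, 9.74 and 9.88. H2AFX, known for both a stem-loop and a polyadenylated mRNA, was at 8.56, 8.53, 7.68 and 7.98, and both of its transient values were the lower ones. H2AFY was at 8.64, 8.57, 8.42 and 8.51, and H3F3B at 8.11, 8.16, 8.04 and 8.18.

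Of 18 genes of histone mRNA processing and transcription, 17 were above the floor and 0 were past 2-fold in any comparison, with medians of -0.09 between the controls and -0.26 between SPRR1A libraries. SLBP, the stem-loop binding protein, was at 6.75 with stable SPRR1A, 6.79 with DsRed, 6.39 with transient SPRR1A and 6.57 with GFP. LSM10, a subunit of the U7 snRNP, was at 6.28, 6.52, 6.24 and 6.19. RNU7-1, the U7 RNA itself, is a short RNA without a poly(A) tail and was listed at 0 throughout. SYMPK, a scaffold of the cleavage complex, was at 6.18, 6.15, 5.92 and 6.06.

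Histone chaperones, which carry new histones to DNA, showed 0 of 18 genes past 2-fold in any comparison, with medians of -0.18 and -0.36 for the comparisons between models. SSRP1, a FACT subunit, was at 8.16, 8.25, 7.79 and 7.98, and NASP, a chaperone of H3 and H4 and of H1, at 7.77, 7.84, 7.41 and 7.52. The 20 genes of S phase and cyclin E-CDK2 also had 0 past 2-fold. Their difference was negative in 17 of 20 between the controls (median -0.16) and in 20 of 20 between SPRR1A libraries (median -0.42). When the TPM total was taken without SPRR1A, the latter became 19 of 20 with a median of -0.27, and the members then had 19 genes past 2-fold higher and a median of 0.74. PCNA, the clamp of the replication fork, was at 9.37, 9.36, 8.91 and 9.09, and TK1, a thymidine kinase, at 8.82, 8.90, 8.63 and 8.79. MCM7, a subunit of the replicative helicase, was at 7.97, 7.95, 7.81 and 7.91, and TYMS, which makes thymidylate, at 7.93, 8.11, 7.37 and 7.59. The transient value was the lower one in each of the 4 genes in both comparisons, with log2 differences from -0.04 for MCM7 to -0.56 for TYMS. The higher histone values of the transient libraries stood beside lower values of most S phase genes, none of them past 2-fold. Whether the share of cells in S phase differed was not measured.

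**Figure D5:**
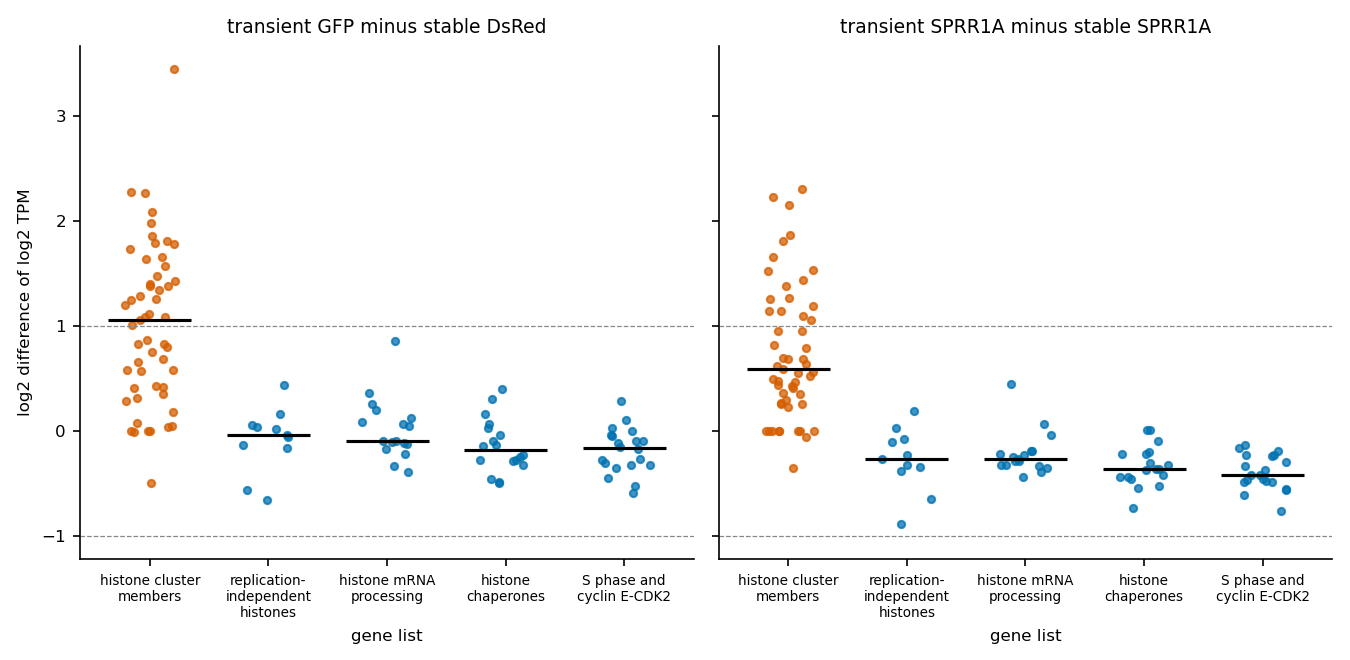
Log2 difference (y axis) of each gene above the floor, by gene list (x axis), for transient GFP minus stable DsRed on the left and transient SPRR1A minus stable SPRR1A on the right. Each point is a gene with a small sideways shift, black bars are medians and dashed lines mark 2-fold. The medians of the members are 1.06 and 0.59, and those of the other 4 lists lie between -0.04 and -0.42.

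Values of other measures moved with the split between models. The markers of other pancreatic cell types had a summed TPM of 23.6 and 21.3 in the stable and 38 and 38.6 in the transient libraries. Most of these sums came from CD68, at 4.09 with stable SPRR1A, 3.99 with DsRed, 4.91 with transient SPRR1A and 4.89 with GFP. COL1A1 was at 2.26, 1.96, 2.13 and 2.62. PRSS1, a trypsinogen gene of acinar cells, was nearer the floor, at 0.79, 0.64, 1.86 and 1.47, and 1.07 higher in transient than in stable SPRR1A cells. The acinar genes CPA1 and CELA3A of the same list were listed at 0 throughout. The number of entities above the floor was also higher in the transient libraries, at 13251 and 13558 compared with 13085 and 12964. The part of these in the histone differences was not tested.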

How the data were processed

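Paired-end mRNA sequencing (stranded mRNA library kit, Illumina) of 4 PK-1 libraries was used. Per the study's methods, alignment to hg38 transcripts used Strand NGS with its defaults. The authors scaled the result to TPM and deposited log2 TPM for each entity. The software version, the annotation release and how multi-mapping reads were treated are not given in the sources used here. From the deposited log2 values, differences between libraries were taken without a pseudocount and called past 1 or -1. Sums used TPM, with values at the floor as 0. Positions came from RefSeq (GRCh38.p14) and GENCODE 44, with Python 3.11.15, numpy 2.4.6 and pandas 2.3.3. The comparison script was tested on simulated data.

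The members and lists were chosen with earlier results of these data known. Members are named where they have the 4 highest mean levels of a class, pass 2-fold between SPRR1A and control, are among the 5 largest differences between models per direction with a TPM of 5 or more in the higher of the libraries, or belong to the polyadenylated or testis lists. Others were named after their values were seen: HIST1H2AD, HIST3H2BB, HIST1H2AM, HIST1H2BO and RNU7-1, and the members given in full lists. Genes of other lists are named from the 4 highest mean levels of a list, or for a 2-fold difference. Alternatives changed the scale, the scaling, the filter and the threshold.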

Additional observations from a re-analysis of the deposited data

How the results depend on the processing

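Limits came from the floor, the TPM total and the absence of replicates. No paired analysis was possible because no condition has more than 1 library and the labels give no numbers that pair libraries. A fit of model and insert without their interaction would leave 1 residual degree of freedom and was not run. For stable SPRR1A over DsRed, the 2 members higher became 1 with log2(TPM + 1), 0 with a TPM of 5 or more in both libraries and 4 at 1.5-fold. The 1 lower became 0 with log2(TPM + 1), with log2(TPM + 0.1) and with a TPM of 5 or more in both or in the higher library, and 2 at 1.5-fold. For transient SPRR1A over GFP, the 0 higher became 2 at 1.5-fold. The 2 lower became 0 with log2(TPM + 1) or a TPM of 5 or more in both, 1 when centred on well expressed entities, with SPRR1A left out of the total or with a TPM of 5 or more in the higher library, and 8 at 1.5-fold. The median of -0.21 became -0.030 when centred and -0.063 without SPRR1A in the total.

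For transient GFP over stable DsRed, the 28 members higher became 17 with log2(TPM + 1), 4 with a TPM of 5 or more in both and 16 in the higher library. The median of 1.09 over members above the floor in either library became 0.79 with log2(TPM + 1), 1.32 with a TPM of 5 or more in the higher library and 1.26 above the floor in both. For transient over stable SPRR1A, the 17 higher became 10 with log2(TPM + 1), 5 and 9 with a TPM of 5 or more in both or in the higher library, and 27 at 1.5-fold. The 0 lower became 1 with log2(TPM + 1) and the floor as a TPM of 0, an alternative added after seeing the data. The median of 0.68 became 0.46 with log2(TPM + 1) and 0.84 without SPRR1A in the total. The filters leave fewer genes, and log2(TPM + 1) shrinks the differences of low genes by construction.

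The summed TPM of stable SPRR1A became 369.4 with floor values as a TPM of 1, 292.7 without the near-identical genes HIST2H2AA3, HIST2H2AA4, HIST2H3A, HIST2H3C, HIST2H4A and HIST2H4B and 195.6 without HIST1H2BK. In stable DsRed these were 327.5, 250.7 and 187.3. In transient SPRR1A the sum became 553.9 with SPRR1A left out of the total, 426.5 without these and 374.0 without HIST1H2BK. In transient GFP it became 467.7 and 430.0. Leaving out HIST1H2BK was also added after seeing the data. The differences past 2-fold of single named members were each taken again under several settings. Of the values so obtained, 113 kept their direction and side of 2-fold, 15 no longer passed it and 0 reversed. Of the 15, 10 were lost with log2(TPM + 1), with which 22 stayed past 2-fold. These settings shrink or slightly shift a difference and could not reverse one past 2-fold.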
